A study of Mus musculus with 36 samples.

Results

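Chemokines are small secreted proteins that steer leukocytes along gradients by binding G protein-coupled receptors. CC chemokines such as Ccl2 and Ccl12 draw monocytes, CXC chemokines such as Cxcl1 draw neutrophils, and homeostatic chemokines such as Ccl21 and Cxcl12 place lymphocytes and progenitor cells in tissues. Cxcl16 and Cx3cl1 are made as membrane-bound proteins that also hold cells by adhesion and are released by proteases. In cystic kidney disease, chemokines from the tubule epithelium are known as attractants of the macrophages that gather around cysts.

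The chemokine genes described here were chosen by name, as Ccl2, Ccl7, Ccl12, Ccl5, Ccl21a, Cxcl1, Cxcl10, Cxcl12, Cxcl16 and Cx3cl1, and 6 of these 10 symbols have a row among the 18049 genes of the count table. Ccl12, Ccl21a, Cxcl10, Cxcl12, Cxcl16 and Cx3cl1 were analysed, and all 6 passed the filter on low counts in every fit. Ccl2, Ccl7, Ccl5 and Cxcl1 were not analysed here.

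The study sequenced RNA from whole kidneys of C57BL/6 mice 0, 3 or 12 days after birth (P0, P3, P12). It asked whether mutations of Pkd1 and Pkhd1, the genes of polycystin-1 and fibrocystin that are mutated in dominant and recessive polycystic kidney disease, act together. At each age there were 4 groups of 3 libraries, 36 libraries in all: wild type (WT), mice homozygous for the RC allele of Pkd1 (Pkd1-RC/RC), mice lacking Pkhd1 (Pkhd1-/-) and digenic mice that carry both (Pkhd1-/-;Pkd1-RC/RC). Each label carries a number that its column header repeats along with a sex. The labels do not state how many animals gave each library, so p-values measure the spread between these libraries.

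Total counts ranged from 51411240 to 80789299 per library, and no 2 libraries held identical values. Pkhd1 was lower in every Pkhd1-/- and digenic library, at 5.90 to 32.8 CPM (counts scaled to library size), than in any other library at the same age, where it was 61.6 to 249.5 CPM. Pkd1 counts cannot check the RC allele, a point mutation that leaves the mRNA. The headers of 2 columns differ from the labels. That of digenic library 1 at P12 gives P3, although its Pkhd1 level was 32.8 CPM. Digenic libraries at P3 had 9.97 to 11.3 CPM. The header of Pkd1-RC/RC library 2 at P12 names Pkhd1, although its Pkhd1 level was 233 CPM. Transcripts of the adrenal gland summed to more than 100 CPM in 8 libraries, among them digenic library 3 at P3 and digenic libraries 2 and 3 at P12. By the headers, all 3 digenic libraries at P3 came from females and all 3 Pkd1-RC/RC libraries at P3 from males, while WT at P3 had 1 female and 2 males. Counts of called chemokines, and of called list genes where they move by over 1.5 times, are given with and without these libraries. At P12, leaving out those with adrenal transcripts keeps digenic library 1 alone in its group. Counts of list genes are therefore not given for that setting at P12. Of 7 kidney identity genes at P12, 5 were lower and 1 higher in digenic than in WT kidneys. By the test described below, 23.0% of all genes differed there. The lower ones included Umod of the thick ascending limb (1125 ± 35.5 against 1925 ± 89.9 CPM) and Nphs1 of podocytes. The higher one was Aqp2 of the collecting duct (1759 ± 321 against 291.9 ± 67.7 CPM). The 7 genes summed to 4123 to 5310 CPM in digenic libraries at P12 and 2439 to 3425 CPM in those at P3. In bulk RNA a change in the number of cells of a type and a change in RNA per cell cannot be told apart, which holds for every level below.

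Upstream sequences are shown for the 3 chemokines with the lowest levels in WT at P12. Their estimated log2 differences between digenic and WT kidneys at P3 and P12, given below, were the largest of the 6. By the test described below, that of Cxcl10 passed at neither age. At P12 it was 0.25 without the 2 libraries whose headers differ. RefSeq promoters were matched for 5 of the 6 genes, all but Cxcl16. Each run below is the 250 bases before the RefSeq gene start (build GRCm38.p6), 5′ to 3′ on the gene's own strand. Capitals mark matches on either strand to the core of the interferon-stimulated response element (GAAANNGAAA), the gamma-activated site (TTCNNNGAA) or the kappaB consensus.
Cxcl10, chr5:92348890-92349139, minus strand: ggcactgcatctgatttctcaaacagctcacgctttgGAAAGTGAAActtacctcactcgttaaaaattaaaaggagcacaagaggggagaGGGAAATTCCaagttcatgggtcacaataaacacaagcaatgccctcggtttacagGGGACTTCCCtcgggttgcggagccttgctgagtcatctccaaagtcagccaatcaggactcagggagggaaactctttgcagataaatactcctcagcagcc
Ccl12, chr11:82101595-82101844, plus strand: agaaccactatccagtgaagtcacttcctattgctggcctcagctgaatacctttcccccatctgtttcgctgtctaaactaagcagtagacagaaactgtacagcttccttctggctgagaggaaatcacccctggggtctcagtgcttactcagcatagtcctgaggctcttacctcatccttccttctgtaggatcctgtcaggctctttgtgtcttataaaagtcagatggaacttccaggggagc
Ccl21a, chr4:42773992-42774241, minus strand: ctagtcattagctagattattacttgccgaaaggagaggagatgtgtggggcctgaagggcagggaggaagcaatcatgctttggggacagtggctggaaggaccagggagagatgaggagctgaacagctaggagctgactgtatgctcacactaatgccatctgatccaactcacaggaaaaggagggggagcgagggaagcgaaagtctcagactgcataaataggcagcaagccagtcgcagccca
The Cxcl10 window held 1 interferon-stimulated response element core, from base 213 to base 204 before the start, and 2 kappaB matches, at bases 159 to 150 and 103 to 94. No match overlapped another. The Ccl12 and Ccl21a windows held none of the 3 motifs, and neither did those of Cxcl12 and Cx3cl1. Among 32851 RefSeq windows of the same length, 2.98% held the interferon element core, 7.02% the gamma-activated site and 3.90% the kappaB consensus. A match of letters is a description of the window and not a measured binding site.

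In WT kidneys at P12, 3 chemokines were abundant and 3 scarce. On the RPKM scale (reads scaled by gene length and library size), which allows levels of different genes to be compared, WT means at P12 were 39.3 ± 6.46 (SD, n = 3) for Cxcl12, 29.6 ± 3.73 for Cx3cl1, 10.8 ± 1.75 for Cxcl16, 2.61 ± 2.64 for Cxcl10, 2.16 ± 0.533 for Ccl21a and 1.39 ± 1.24 for Ccl12. The first 3 were separated from each other and from the rest, while the ranges of Cxcl10, Ccl21a and Ccl12 overlapped their neighbours in that order. At P3 Ccl21a, at 6.32 RPKM, overlapped Cxcl16, at 5.65 RPKM. In digenic kidneys at P12, Ccl21a came first by mean with 79.0 ± 48.2 RPKM, ahead of Cx3cl1 with 42.1 ± 6.57, and the ranges of these 2 overlapped. Cxcl12 at 26.3 ± 6.05 and Cxcl16 at 24.7 ± 8.83 followed with overlapping ranges.

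**Figure D1:**
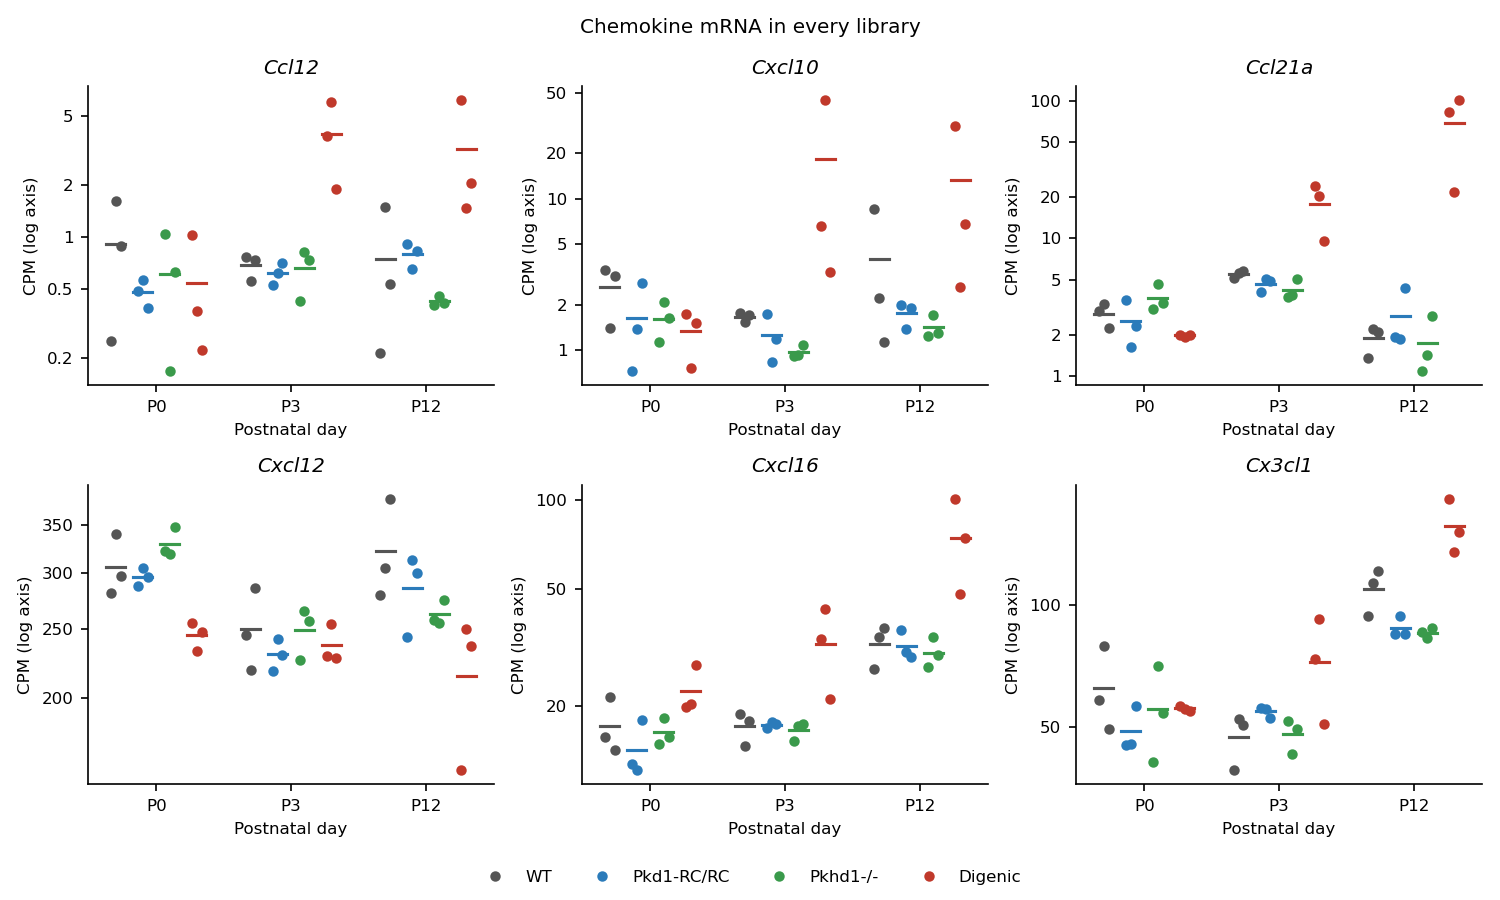
CPM of the 6 chemokine genes (log axis) in each library by postnatal day, with 1 point per library and a bar at the mean of 3 libraries in each genotype group. Digenic libraries lie above WT for Ccl21a at P3 and P12, where they reach 102 CPM, while Cxcl12 stays between 158.5 and 380.9 CPM in all 36 libraries.

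From P3 to P12 in WT kidneys the 3 abundant chemokines rose and Ccl21a fell. Adjusted p-values are those of edgeR's quasi-likelihood test, adjusted by Benjamini-Hochberg over all genes tested, and a gene is called where the adjusted p is below 0.05. From P3 to P12, 4 of the 6 genes were called, against 35.5% of all genes: Cx3cl1 rose by 1.21 ± 0.18 (log2 fold change ± SE, adjusted p = 7.26e-06), Cxcl16 rose by 0.93 ± 0.22 (adjusted p = 0.00160) and Cxcl12 rose by 0.36 ± 0.13 (adjusted p = 0.0299). Ccl21a fell by 1.55 on the log2 scale (SE 0.42, adjusted p = 0.00460), from 5.15, 5.58 and 5.78 CPM at P3 to 1.35, 2.19 and 2.099 CPM at P12. The Cxcl12 call was lost without WT library 1 or 2 at P3 or library 3 at P12 (adjusted p = 0.122, 0.151 and 0.245; 0.0177 to 0.245 over all alternatives). From P0 to P12, Cxcl16 (0.93 ± 0.22) and Cx3cl1 (0.81 ± 0.18) rose, 2 of 6 where 49.8% of all genes were called. From P0 to P3 no chemokine was called by edgeR or DESeq2, against 24.7% of all genes, with 3 at an unadjusted p below 0.05.

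Neither single mutation gave a called chemokine at any age. Against WT, 0 of 6 were called in Pkd1-RC/RC kidneys of any age, where at P0, P3 and P12 0.0166%, 0.0443% and 0.267% of all genes were called, and 0 of 6 in Pkhd1-/- at the same ages, against 0.0111%, 0.0166% and 0.0333%. DESeq2 also called 0 in each of these 6 comparisons. Cx3cl1 at P12 was the single chemokine at an unadjusted p below 0.05 in either mutant. It was 85.02, 93.8 and 84.6 CPM in Pkd1-RC/RC and 85.7, 82.9 and 87.9 CPM in Pkhd1-/-, against 94.2, 113 and 121 CPM in WT. The libraries of each single mutant lay below all WT libraries, and the log2 differences were -0.32 ± 0.11 (adjusted p = 0.535) in Pkd1-RC/RC and -0.36 ± 0.11 (adjusted p = 0.957) in Pkhd1-/-. Other chemokines were also separated from WT, and none of these was called. At P12, Cxcl12 was lower in Pkhd1-/- (255.4 to 274.6 against 279.5 to 380.9 CPM). At P3, Ccl21a was lower in both single mutants and Cxcl10 in Pkhd1-/-, while Cx3cl1 was higher in Pkd1-RC/RC. The share of all genes without overlap was not counted for the single mutants, so these separations are given as a description. For digenic against WT kidneys that share was 18.1% at P3 and 35.4% at P12.

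Digenic kidneys at birth had no called chemokine by edgeR or DESeq2, against 0.671% of all genes, and 1 at an unadjusted p below 0.05. Cxcl12 was that gene, at 255, 233 and 248 CPM against 281, 340 and 297 CPM in WT. All 3 digenic libraries lay below WT, with a log2 difference of -0.31 ± 0.11 (adjusted p = 0.190). Ccl21a also did not overlap (22.8% of all genes did not), at 1.94 to 2.001 CPM against 2.22 to 3.32 CPM in WT (log2 difference -0.51 ± 0.29, adjusted p = 0.402). Against the single mutants at P0, 0 of 6 were called where 0.0388% (Pkd1-RC/RC) and 0.244% (Pkhd1-/-) of genes were. Of these, 2 and 3 chemokines had an unadjusted p below 0.05, and DESeq2 called 0 and 1, the latter being Cxcl12 (-0.42, adjusted p = 0.0130 with DESeq2; 0.0130 to 0.0464 in the alternatives that called it).

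By P3, 3 of the 6 chemokines were higher in digenic than in WT kidneys, where 2.70% of all genes were called. The median log2 difference of the 6 genes was 1.31, against -0.01 over all genes. Ccl12, Ccl21a, Cxcl10 and Cxcl16 had no overlap between the groups, 4 of 6 where 18.1% of all genes had none, and none of the 6 was called in the downward direction.

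Of the inflammatory chemokines, Ccl12 was called at P3 and Cxcl10 was not. Ccl12 (chr11:82101845-82103400, mm10) encodes a ligand of the monocyte receptor Ccr2 and is 1 of a cluster of monocyte attractants. It was 3.83, 6.05 and 1.89 CPM in digenic libraries and 0.768, 0.553 and 0.738 CPM in WT. Each digenic library was above all WT, Pkd1-RC/RC and Pkhd1-/- libraries of that age, and the log2 difference from WT was 2.50 ± 0.38 (5.66-fold, adjusted p = 0.00569). Cxcl10 (chr5:92346638-92348889) encodes an interferon-induced attractant of activated T cells through Cxcr3. It was 6.57, 44.95 and 3.28 CPM in digenic libraries against 1.76, 1.53 and 1.70 CPM in WT. The groups did not overlap, but library 2 was far above the other 2, and the log2 difference of 3.44 ± 0.85 was not called (adjusted p = 0.0676). Without digenic library 2 the difference was 1.55 (adjusted p = 0.0439), and without digenic library 3 it was 3.94 (adjusted p = 0.00376; 0.000785 to 0.366 over all alternatives). All exons of Cxcl10 lie within the span of Art3 on the opposite strand, and 133 bases of its exons overlap exons of Art3, counting every GENCODE transcript, those with retained introns included. The sources used here do not give whether the counting used strand.

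Ccl21a (chr4:42772860-42773993) encodes a homeostatic chemokine of lymphatic endothelium and lymph node stroma that guides Ccr7-bearing dendritic cells and T cells. It was 23.8, 20.4 and 9.52 CPM in digenic libraries at P3 and 5.15, 5.58 and 5.78 CPM in WT. The groups did not overlap, and the log2 difference was 1.69 ± 0.26 (3.23-fold, adjusted p = 0.00627). Near-identical copies of the gene exist: 33.7% of the 721 windows of 150 bases in the Ccl21a transcript occur unchanged in the transcript of Gm13304, and 8.18% in those of Ccl21b and of Gm10591. These copies were not analysed here, so the value may hold reads of, or miss reads shared with, a copy.

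The transmembrane chemokines differed less. Cxcl16 (chr11:70453983-70459984), the ligand of Cxcr6 on T and natural killer T cells and a scavenger receptor for oxidised lipid, was 33.7, 42.8 and 21.1 CPM in digenic libraries at P3 against 18.8, 14.6 and 17.8 CPM in WT. The groups did not overlap, and the log2 difference was 0.92 ± 0.19 (adjusted p = 0.0264). That call was lost without any 1 of the 3 WT libraries or without digenic library 1 or 2 (adjusted p = 0.0609 to 0.115; 0.000268 to 0.153 over all alternatives). Cx3cl1 (chr8:94772009-94782423), also called fractalkine, the ligand of Cx3cr1 on monocytes and tissue macrophages, was 73.6, 92.6 and 50.8 CPM in digenic libraries against 39.1, 52.3 and 50.5 CPM in WT. Library 3 lay within the WT range, and the log2 difference of 0.60 ± 0.18 was not called (adjusted p = 0.0984). Without digenic library 3 it was 0.80 (adjusted p = 0.00734; 0.00734 to 0.461 over all alternatives). Cxcl12 (chr6:117168535-117181367), a stromal chemokine that acts through Cxcr4 and is taken up by Ackr3, was 229.6, 254.5 and 228.0 CPM in digenic libraries against 246, 219 and 286 CPM in WT, within the same range (log2 difference -0.08 ± 0.10).

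Digenic library 3 at P3, the lowest of the 3 for Ccl12, Ccl21a, Cxcl10, Cxcl16 and Cx3cl1, is also the one with adrenal transcripts. Without the libraries that hold adrenal transcripts, 5 of 6 chemokines were called at P3, all higher, with log2 differences of 2.83 for Ccl12, 1.99 for Ccl21a, 3.94 for Cxcl10, 1.15 for Cxcl16 and 0.80 for Cx3cl1. With sex, as the headers give it, as a term in the fit, 1 was called, Ccl21a, at 1.72 (adjusted p = 0.0485). Ccl12 was then 2.30 (adjusted p = 0.0581) and Cxcl16 0.88 (adjusted p = 0.148). Alone with the WT libraries in the fit, 0 of 6 passed (adjusted p = 0.0515 for Ccl12 and 0.0693 for Ccl21a), and DESeq2 called 5.

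**Figure D2:**
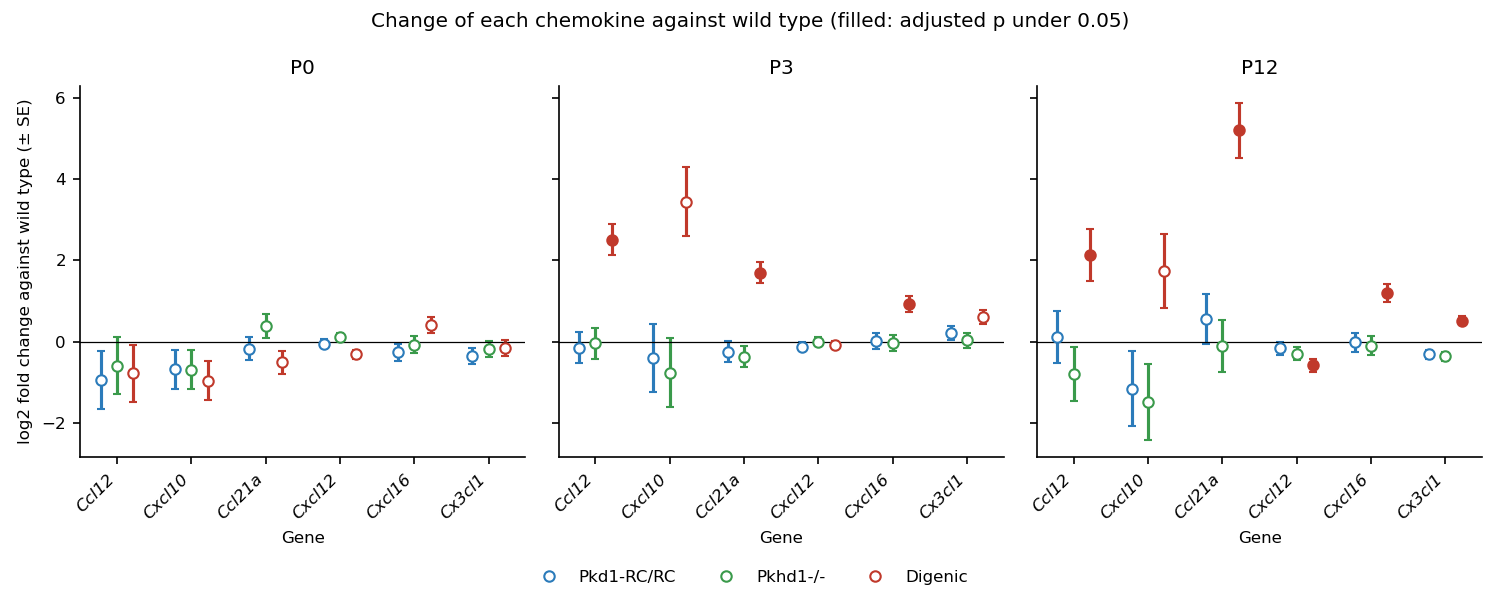
Log2 fold change of each of the 6 chemokine genes against WT (± SE) in the 3 mutant genotypes, in 1 panel per postnatal day, with filled points where the adjusted p was below 0.05. Filled points occur in digenic kidneys alone, 3 at P3 and 5 at P12, and the highest is Ccl21a at P12 with 5.20.

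At P12, 5 of the 6 chemokines were called in digenic against WT kidneys, 4 higher and 1 lower, where 23.0% of all genes were called. The median log2 difference of the 6 was 1.47, against -0.01 over all genes. Ccl21a, Cxcl16, Cx3cl1 and Cxcl12 had no overlap between the groups, 4 of 6 where 35.4% of all genes had none.

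Ccl21a showed the greatest difference of the 6. It was 82.8, 21.7 and 102 CPM in digenic libraries against 1.35, 2.19 and 2.099 CPM in WT. The lowest digenic library stood far above the highest of all other libraries of that age, a Pkd1-RC/RC library at 4.37 CPM. The log2 difference was 5.20 ± 0.67 (36.6-fold, adjusted p = 0.000890), and the call held in all 16 alternatives, between 4.80 and 5.64. Ccl21a in WT had fallen from P3 to P12, whereas in digenic kidneys its mean went from 17.9 ± 7.47 (SD, n = 3) to 68.8 ± 41.9 CPM.

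Ccl12 was 6.22, 1.46 and 2.05 CPM in digenic libraries at P12 against 0.214, 1.497 and 0.531 CPM in WT. The ranges touched, since digenic library 2 lay just below WT library 2, and the log2 difference was 2.13 ± 0.63 (adjusted p = 0.0312). The call was lost without digenic library 1 (1.25, adjusted p = 0.130) or without WT library 1 (1.71, adjusted p = 0.0696) or 3 (1.94, adjusted p = 0.112; 0.00214 to 0.149 over all alternatives). Without WT library 2 it was 3.11 (adjusted p = 0.00670). Cxcl10 was 30.3, 2.62 and 6.79 CPM in digenic libraries against 8.56, 2.22 and 1.14 CPM in WT. Here the groups overlapped, with library 1 highest in each, and the log2 difference of 1.73 ± 0.90 was not called (adjusted p = 0.204).

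Cxcl16 was 101, 48.1 and 74.4 CPM in digenic libraries at P12 against 26.6, 34.3 and 36.7 CPM in WT. All digenic libraries were above all others of that age, and the log2 difference was 1.20 ± 0.23 (2.29-fold, adjusted p = 0.00356), called in all 16 alternatives. Of the 3021 exonic bases of Cxcl16, 552 overlap exons of Zmynd15 on the opposite strand, so without stranded counting their reads cannot be told apart there. Cx3cl1 was 183, 135 and 151 CPM against 94.2, 113 and 121 CPM in WT. The groups did not overlap, and the log2 difference was 0.51 ± 0.11 (1.42-fold, adjusted p = 0.00628), called in 15 of 16 alternatives and not with all 36 libraries in a single fit (adjusted p = 0.0512; 0.000224 to 0.0512 over all alternatives).

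Cxcl12 was the 1 chemokine that was lower. It was 158.5, 250 and 237 CPM in digenic libraries against 279.5, 305 and 381 CPM in WT. The groups did not overlap, and Cxcl12 fell by 0.58 on the log2 scale (SE 0.16, adjusted p = 0.0221). The call was lost without WT library 3 (-0.44, adjusted p = 0.0955) and without the libraries whose headers differ (-0.40, adjusted p = 0.0532; 0.00214 to 0.0955 over all alternatives). Stromal marker genes were also lower at P12, 3 of 6 called where 23.0% of all genes were. Lum was at 7.88 ± 3.48 CPM against 27.4 ± 2.37 CPM and Dcn at 179.7 ± 32.4 against 256 ± 15.7. Without the libraries whose headers differ 2 of the 6 were lower. The 6 genes summed to 2888 to 5749 CPM in digenic and 4535 to 4867 CPM in WT libraries, and their part in the Cxcl12 difference was not tested.

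Digenic library 1 at P12, the one with the differing header, was the highest of the 3 for Ccl12, Cxcl10, Cxcl16 and Cx3cl1 and the lowest for Cxcl12. Without it and Pkd1-RC/RC library 2, 3 of 6 chemokines were called at P12: Ccl21a at 5.04, Cxcl16 at 0.91 and Cx3cl1 at 0.38. Without the libraries that hold adrenal transcripts, which leaves digenic library 1 alone in its group with the spread taken from the other groups, 5 were called, with Ccl21a at 5.48, Cxcl16 at 1.66 and Cxcl12 at -1.01.

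Digenic kidneys were also compared with each single mutant, using the same digenic libraries as the comparisons with WT. At P3, 2 of 6 were called against Pkd1-RC/RC (0.460% of all genes), Ccl12 at 2.65 ± 0.38 and Ccl21a at 1.94 ± 0.26. Both calls were lost without any 1 of the 3 Pkd1-RC/RC libraries (adjusted p = 0.0710 to 0.108) and with the sex term (adjusted p = 0.329 and 0.286). Between these all-female and all-male groups, sex and genotype can be told apart only through the other groups of the fit. Without digenic library 3, 4 were called. Against Pkhd1-/- at P3, 4 of 6 were called (3.49% of all genes): Ccl12 at 2.55 ± 0.38, Ccl21a at 2.07 ± 0.27, Cxcl10 at 4.21 ± 0.89 and Cxcl16 at 0.96 ± 0.19. Without Pkhd1-/- library 1 or 3, 2 were called, Ccl12 and Ccl21a. The Cxcl10 call was lost without any 1 Pkhd1-/- library (adjusted p = 0.0925 to 0.145), and without digenic library 2 its value was 2.32 (adjusted p = 0.00637). The Cxcl16 call was also lost without digenic library 1 or 2 (adjusted p = 0.0569 and 0.0750).

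At P12, 4 of 6 were called against Pkd1-RC/RC (19.5% of all genes) and 5 of 6 against Pkhd1-/- (28.2%), all higher. Ccl21a was 4.64 ± 0.65 and 5.30 ± 0.68 higher, Cxcl16 1.22 ± 0.23 and 1.30 ± 0.23, Cx3cl1 0.83 ± 0.11 and 0.87 ± 0.11, and Ccl12 2.02 ± 0.63 and 2.93 ± 0.67 on the log2 scale. These calls held in all 15 alternatives of each comparison, other than Ccl12 against Pkd1-RC/RC, which was called in 7. Ccl12 against Pkhd1-/- was 2.05 without digenic library 1. The Ccl12 call against Pkd1-RC/RC was lost without any 1 Pkd1-RC/RC library or without digenic library 1 or 3 (1.13 without digenic library 1, adjusted p = 0.172; 0.00438 to 0.310 over all alternatives). Cxcl10 was higher than in Pkhd1-/- by 3.22 ± 0.98 (adjusted p = 0.0366), a call lost without any 1 of the 3 Pkhd1-/- libraries or without digenic library 1 (1.74, adjusted p = 0.111; 0.00198 to 0.125 over all alternatives). Against Pkd1-RC/RC it was 2.90 ± 0.96 and not called (adjusted p = 0.0637), and was called without digenic library 2 (3.40, adjusted p = 0.0290). Cxcl12 was called in neither comparison (-0.41 ± 0.16 and -0.29 ± 0.16), though without digenic library 2 it was lower than in Pkd1-RC/RC by the test (-0.52, adjusted p = 0.0489).

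The interaction term asks whether the digenic difference from WT departs from the sum of both single-mutant differences on the log2 scale. It was called for no chemokine at P0 (0.00554% of all genes, 2 at an unadjusted p below 0.05, 0 by DESeq2) and for none at P3 (0.0% of all genes, 4 at an unadjusted p below 0.05, 3 by DESeq2, and 4 by edgeR without digenic library 3). At P12 it was called for 3 of 6 (8.57% of all genes). Ccl21a exceeded the sum by 4.75 ± 0.89 (adjusted p = 0.0164), Cxcl16 by 1.32 ± 0.32 (adjusted p = 0.0307) and Cx3cl1 by 1.19 ± 0.16 (adjusted p = 0.00296). The Cx3cl1 term exceeded its digenic difference from WT, since both single mutants lay below WT. Cx3cl1 was called in all 21 alternatives and Ccl21a in 20, the exception being without Pkhd1-/- library 2 (adjusted p = 0.0535; 3.80e-06 to 0.0535 over all alternatives). Cxcl16 was called in 11 of 21 and was lost without WT library 2 or 3, Pkd1-RC/RC library 2 or 3, any Pkhd1-/- library or digenic library 3 (adjusted p = 0.0524 to 0.0779), and 5 chemokines were called without digenic library 2.

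Whether the digenic difference changed with age was tested in a fit of all 36 libraries. From P0 to P12 it grew by 5.71 ± 0.62 for Ccl21a (adjusted p = 3.98e-06) and by 2.94 ± 0.90 for Ccl12 (adjusted p = 0.0384), 2 of 6 where 8.79% of all genes were called. From P3 to P12, Ccl21a alone was called, at 3.49 ± 0.58 (adjusted p = 0.00106), where 2.33% of genes were. From P0 to P3 none was called by edgeR (0.693% of genes), with 4 at an unadjusted p below 0.05 and 3 called by DESeq2, and 4 were called by edgeR without digenic library 3 at P3. The Pkd1-RC/RC difference changed for no chemokine from P0 to P3, P3 to P12 or P0 to P12 (0.0%, 0.0111% and 0.00554% of genes, with 1, 1 and 0 chemokines at an unadjusted p below 0.05). The Pkhd1-/- difference changed for none either (0.0%, 0.0% and 0.0% of genes, with 0, 0 and 1), and DESeq2 called 0 in these 6 comparisons.

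The receptors of these ligands were compared next. Of 22 chemokine receptor genes listed, 12 have a row and were tested. At P3 none was called in digenic against WT kidneys by edgeR, and DESeq2 called 2, Ccr1 and Cx3cr1. Without the libraries with adrenal transcripts edgeR also called both, Ccr1 at 1.25 (adjusted p = 0.0176) and Cx3cr1 at 0.73 (adjusted p = 0.0236). Both were also called by edgeR without digenic library 3 (adjusted p = 0.0128 and 0.0103). At P12, 7 were higher and 2 lower, where 23.0% of all genes were called, with a median log2 difference of 0.39 against -0.01 over all genes. Without the libraries whose headers differ 5 were higher and 1 lower.

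Receptors of monocytes and macrophages are given first. Cx3cr1, the receptor of Cx3cl1, was 48.2 ± 20.1 CPM in digenic and 12.98 ± 3.27 CPM in WT kidneys at P12 (SD, n = 3), a log2 difference of 1.89 ± 0.29 (edgeR adjusted p = 0.00110). Ccr1, which binds several CC chemokines, rose by 2.60 ± 0.36. Ccr2, the receptor of Ccl2, Ccl7 and Ccl12, rose by 1.19 ± 0.28, a call lost with all 36 libraries in a single fit (adjusted p = 0.0768). It was also lost without the libraries that hold adrenal transcripts (0.69), where digenic library 1 stood alone in its group.

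Cxcr2, the neutrophil receptor of Cxcl1, was scarce at 1.77 ± 1.54 CPM in digenic and 0.198 ± 0.105 CPM in WT kidneys, and rose by 3.18 ± 0.79 (adjusted p = 0.0135). The ranges overlapped, and the call was lost without WT library 3 (adjusted p = 0.0601) or digenic library 3 (adjusted p = 0.0529). Both receptors of Cxcl12 were higher while their ligand was lower: Cxcr4 by 0.49 ± 0.12 (adjusted p = 0.00961) and Ackr3, a receptor that takes up Cxcl12 from the surroundings, by 0.30 ± 0.09 (adjusted p = 0.0358). Cxcr4 was not called without the libraries that hold adrenal transcripts (0.28), where digenic library 1 stood alone in its group. The Cxcr4 call was also lost with all 36 libraries in a single fit (adjusted p = 0.0909) and with digenic and WT libraries alone (adjusted p = 0.0614). Ackr3 was not called without the libraries whose headers differ (0.24, adjusted p = 0.0662), nor without WT library 1 or 3 or digenic library 1 or 3 (adjusted p = 0.0719 to 0.115). Its call was also lost with replicate number as a term (adjusted p = 0.0563) and with digenic and WT libraries alone (adjusted p = 0.0792). Ackr4, which takes up Ccl21, was level at 0.03 ± 0.13 (adjusted p = 0.889). Ccr7, Cxcr3 and Cxcr6, the receptors of Ccl21a, Cxcl10 and Cxcl16, were not analysed here.

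Of 30 other chemokines listed, 10 were tested. Of all genes, 2.7% were called at P3 and 23.0% at P12. At P12, 3 were higher in digenic than in WT kidneys: Pf4, a platelet and macrophage chemokine, by 1.36 ± 0.18, and Ccl6 by 2.38 ± 0.43 and Ccl9 by 1.79 ± 0.30, which are products of myeloid cells. Lower were Cxcl13, which guides B cells through Cxcr5, with a log2 difference of -1.39 ± 0.35, and Cxcl14, at -0.67 ± 0.18. Cxcr5 itself was -1.03 ± 0.33. Cxcl13 was also lower at P3 (-1.22 ± 0.29, adjusted p = 0.0462), a call lost without WT library 2 or 3 or digenic library 1 or 2 (adjusted p = 0.0829 to 0.180). The P3 call was also lost with the sex term (adjusted p = 0.186) and with replicate number as a term (adjusted p = 0.0884). Nor was Cxcl13 called at P3 with digenic and WT libraries alone (adjusted p = 0.221) or all 36 in a single fit (adjusted p = 0.258). Neither Cxcl13 nor Cxcl14 was called at P12 without the libraries whose headers differ. Neither was called without those that hold adrenal transcripts, where digenic library 1 stood alone in its group. Cxcl13 was -1.04 without WT library 2 (adjusted p = 0.0539) and -1.38 with all 36 libraries in a single fit (adjusted p = 0.0547). The median of these 10 genes at P12 was 0.23. None of the 5 tested of 7 genes that process chemokines was called at P3 or P12.

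**Figure D3:**
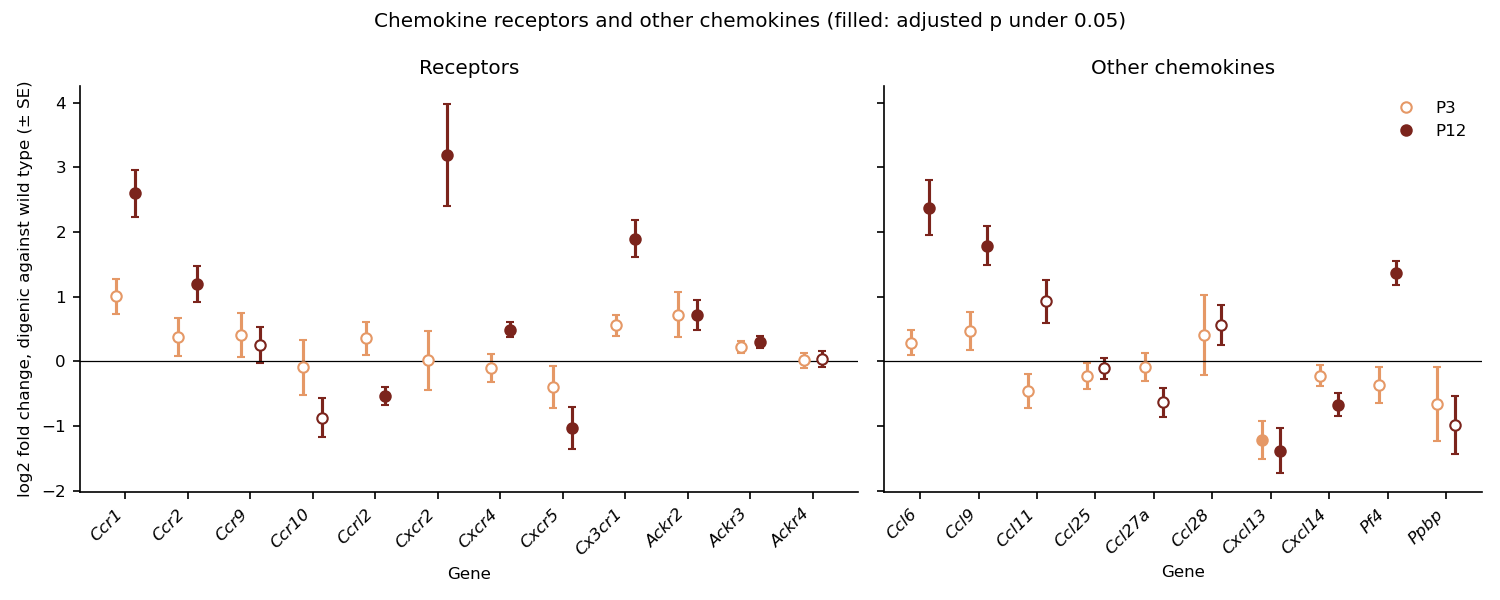
Log2 fold change in digenic against WT kidneys (± SE) of 12 chemokine receptors and 10 other chemokines at P3 and P12, with filled points where the adjusted p was below 0.05. At P12, 7 receptors and 3 other chemokines are filled above 0 and 2 of each below, while at P3 Cxcl13 alone is filled.

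Interferon response genes, NF-kB and inflammatory cytokine genes, and markers of cell types were counted in digenic against WT kidneys. Of all genes, 2.7% were called there at P3 and 23.0% at P12. Of 19 interferon response genes tested, 15 were higher and 0 lower in digenic kidneys at P3, with a median of 1.64, and 9 were higher and 1 lower at P12. Ifit1, an antiviral effector, rose by 2.58 ± 0.37 at P3, and Oasl2 by 1.96 ± 0.29. With the sex term 0 of the 19 were called at P3, and without the libraries with adrenal transcripts 18 were. At P12, 7 were higher without the libraries whose headers differ. Of 20 NF-kB and inflammatory cytokine genes, 5 were higher at P3 and 15 at P12, with Icam1, the leukocyte adhesion molecule, at 1.35 ± 0.24 and 1.20 ± 0.19 and Tnfrsf1b, a tumour necrosis factor receptor, at 0.64 ± 0.14 and 1.80 ± 0.25. With the sex term 0 of the 20 were called at P3, while 8 were higher without the libraries with adrenal transcripts and 11 by DESeq2. Without the libraries whose headers differ 12 were higher at P12.

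Of 15 macrophage and monocyte genes, 4 were higher and 1 lower at P3 and 13 were higher at P12, with a median of 2.42 at P12. Of all genes, 2.7% were called at P3 and 23.0% at P12. At P3, 10 of the 15 were higher by DESeq2, 6 without the libraries with adrenal transcripts and 3 with the sex term. Adgre1, which encodes the macrophage antigen F4/80, rose by 2.60 ± 0.27 at P12, and the scavenger receptor Cd163 by 3.08 ± 0.33. All 6 neutrophil genes tested were higher at P12, with S100a8 at 4.38 ± 0.76. Their summed level was 13.8 to 105 CPM in digenic and 3.52 to 8.27 CPM in WT libraries. Of 3 T and NK lymphocyte genes tested of 12 listed, Cd4 and Lck were higher at P12 (2.35 ± 0.37 and 0.86 ± 0.24), while Cd8a was lower at P3 (-1.84 ± 0.26). Lck was not called without the libraries with adrenal transcripts, where digenic library 1 stood alone in its group. Of 3 B lymphocyte genes, Cd79b was higher and Cd79a lower at P12.

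Markers of lymphatic endothelium, a known source of Ccl21, were set beside Ccl21a at P12, where 23.0% of all genes were called. Of 5 genes, Pdpn (0.65 ± 0.14) and Lyve1 (1.08 ± 0.30) were higher at P12 and Prox1 (-0.89 ± 0.17), the transcription factor of that lineage which tubules also express, was lower. Without the libraries whose headers differ 1 was higher and 1 lower. Their summed level was 96.2 to 114.5 CPM in digenic and 101.5 to 109.6 CPM in WT libraries at P12. Library 2, with the lowest Ccl21a of the digenic libraries, had the highest of these sums, an order of 3 libraries with no test. With called genes in both directions, the sum is no measure of the amount of lymphatic endothelium. Blood endothelial genes were lower at P12, 4 of 6 called, among them Emcn at -0.88 ± 0.13, with 3 without the libraries whose headers differ. The part of these cell types in the Ccl21a difference was not tested.

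Within the digenic groups, libraries kept a like order for several of these measures. For Cxcl10, the summed interferon response genes at P3 were 764, 2121 and 448 CPM in libraries 1, 2 and 3, and at P12 1848, 409 and 584 CPM. In both ages the library with the highest sum had the highest Cxcl10 and Ccl12, and the lowest sum went with the lowest. Cxcl16 and Cx3cl1 kept the same order of libraries at both ages, so the order was not particular to Cxcl10 and Ccl12. For Ccl21a, the summed macrophage and monocyte genes at P12 were 1205, 522 and 1245 CPM in libraries 1, 2 and 3, with 251 to 287 CPM in WT, and the order was that of Ccl21a. At P3 the sums were 419, 514 and 334 CPM, in the order of the interferon sums. The order of Ccl21a differed, since library 1 had the highest Ccl21a. These are orders of 3 libraries that share their depth and scaling, with no test.

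**Figure D4:**
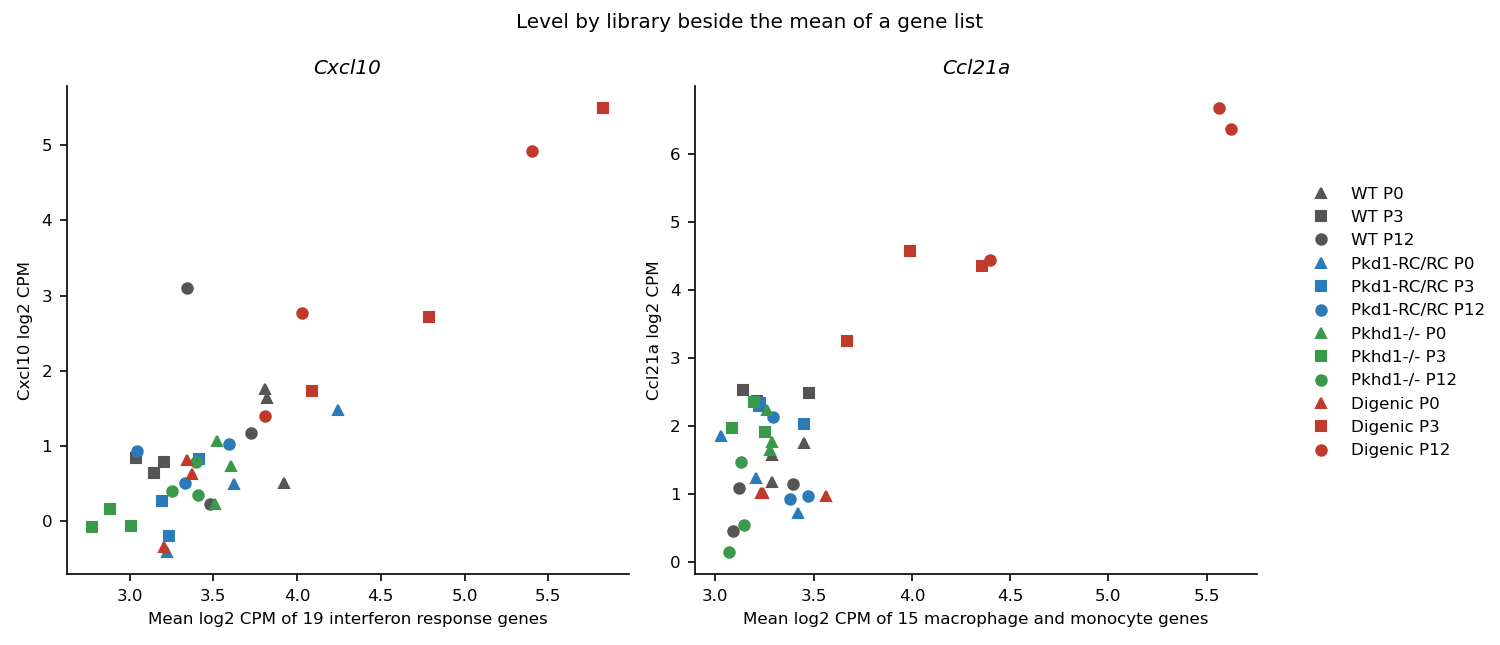
Log2 CPM of Cxcl10 against the mean log2 CPM of 19 interferon response genes (left) and of Ccl21a against that of 15 macrophage and monocyte genes (right), with 1 point for each of the 36 libraries, colour for genotype and shape for postnatal day. Digenic library 2 at P3 lies highest at left with a mean of 5.83, and digenic libraries 1 and 3 at P12 lie highest at right with means of 5.63 and 5.56.

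Genes whose pattern over the 12 group means was most like that of each chemokine were ranked by Pearson's r of log2 CPM, as a description of means that share libraries and scaling. The ranking left out genes with a low mean log2 CPM, sex-linked genes and the chemokines described here. Genes with Gm, Rik or clone-based names were also left out, so the Gm-named copies of Ccl21a could not appear. For Ccl12 these were Igtp (0.954), Irgm1 (0.943) and Tap1 (0.942), and for Cxcl10 Ifi47 (0.961), Tgtp1 (0.959) and Gbp6 (0.954), all known as interferon-inducible. For Ccl21a they were Slc11a1 (0.975), Ptprc (0.973) and Coro1a (0.967), all known from leukocytes. For Cxcl16 they were Zmynd15 (0.996), which overlaps it as given above, Cp (0.986) and Kcnq1 (0.981), and for Cx3cl1 Spp1 (0.976), which encodes osteopontin, Psap (0.961) and Cp (0.960). The nearest genes to Cxcl12 were less alike: Ogn (0.915), Dcdc2b (0.915) and Rhpn1 (0.890).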

How the data were processed

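RNA-seq counts of whole kidney were deposited by the authors as 1 table of raw gene counts with gene positions and lengths, per the file headers. Reads of 150 bases, in pairs, were, per the submitters' processing notes, aligned to mm10 (TopHat2, Bowtie) and assigned to genes by featureCounts, within the MAP-RSeq pipeline, per the design text. Every gene in the table has a mean of at least 8.75 counts over the 36 libraries. The table's 36 further per-sample columns were not used. Groups came from the labels.

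Counts were fitted with edgeR 4.0.16 (R 4.3.3; quasi-likelihood, robust, TMM scaling, filterByExpr) over the 12 libraries of each age with a term per genotype, and over all 36 for changes with age. Calls needed an adjusted p (Benjamini-Hochberg, all genes tested) under 0.05. CPM used TMM factors of all 36 libraries, log2 CPM a prior count of 2, and RPKM the table's lengths. The fit was tested on simulated data. Alternatives were DESeq2 1.42.0, its size factors, no filter, each library left out, a replicate block, a single fit of all libraries, 2 groups alone, and a gene length correction. A sex term and leaving out 8 libraries with adrenal transcripts or 2 with differing headers were added after seeing the data.

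The members and lists were chosen with earlier results of these data known. All members were named, with Pkd1 and Pkhd1, their receptors (1 is not reported here), up to 4 called genes per list at P12 and 3 at P3 by adjusted p, and the 3 genes most like each member by r. Same-numbered libraries had deviations correlated at -0.704 to 0.603, all 3 over 0.1 in 2 of 15 pairs of groups (WT and Pkhd1-/- at P12, Pkd1-RC/RC and digenic at P0), and no chemokine was called in those 2 with or without the block.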

Additional observations from a re-analysis of the deposited data

Results flagged for a closer look

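In 3 cases the difference between digenic and WT kidneys changed between ages by a test of that change (edgeR, all 36 libraries). The Ccl21a difference was 5.71 higher on the log2 scale at P12 than at P0 (adjusted p = 3.98e-06) and 3.49 higher at P12 than at P3 (adjusted p = 0.00106), and both calls held in all 19 alternatives. The Ccl12 difference was 2.94 higher at P12 than at P0 (adjusted p = 0.0384). That call held in 11 of 19 alternatives, and was lost without WT library 2 or 3 or digenic library 2 or 3 at P0, without WT library 1 or 3 or digenic library 1 at P12, and without the 2 libraries whose headers differ (values of 2.05 to 2.97, adjusted p = 0.0658 to 0.176; 0.00931 to 0.176 over all alternatives). Without digenic library 1 at P0 it was 3.77, and without WT library 2 at P12 it was 3.92.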

How the results depend on the processing

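No called chemokine changed sign under any alternative. The number of chemokines called of 6 changed by more than 1.5 times as follows. With DESeq2 it was 5 for digenic against WT at P3 (3 in the report), 4 against Pkd1-RC/RC at P3 (2), 1 against Pkhd1-/- at P0 (0), 3 for the interaction at P3 (0), 5 for that at P12 (3) and 3 for the change of the digenic difference from P0 to P3 (0). With all 36 libraries in a single fit it was 4 against Pkd1-RC/RC at P3 and 1 against Pkhd1-/- at P0. With the 2 groups alone it was 0 for digenic against WT at P3 and 3 at P12 (5). The sex term gave 1, 0 and 2 for digenic at P3 against WT, Pkd1-RC/RC and Pkhd1-/- (3, 2 and 4). Without the libraries with adrenal transcripts it was 5 and 4 for digenic at P3 against WT and Pkd1-RC/RC, 2 for the interaction at P3, 1 for WT from P0 to P3 (0), and 4, 2 and 6 for the change of the digenic difference from P0 to P3, P3 to P12 and P0 to P12 (0, 1 and 2). At P12 the fit without the libraries with adrenal transcripts leaves digenic library 1 alone in its group. Without the 2 libraries whose headers differ the number was 3 for digenic against WT at P12 and 1 for the change from P0 to P12. The cause of these changes was not tested, and the fits that leave libraries out also hold fewer samples. With the replicate block it was 2 at P3 and 4 at P12 for digenic against WT, and no count moved by over 1.5 times. The report's values carry no block, since same-numbered libraries did not pair outside the 2 pairs of groups named in the methods.

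Leaving out 1 library at a time gave 2 to 5 chemokines for digenic against WT at P3 and 3 to 5 at P12, 0 to 4 and 3 to 6 against Pkd1-RC/RC, and 2 to 5 and 4 to 5 against Pkhd1-/-. It gave 0 to 4 for the interaction at P3, 1 to 5 for that at P12, 3 to 4 for WT from P3 to P12, and 0 to 4, 1 to 1 and 1 to 3 for the change of the digenic difference from P0 to P3, P3 to P12 and P0 to P12. The other comparisons kept their counts.

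Counts over all genes moved by over 1.5 times for these comparisons. With DESeq2, digenic against WT gave 703 at P0 (121 by edgeR) and 1118 at P3 (487), against Pkd1-RC/RC 64 (7) and 521 (83), and against Pkhd1-/- 520 (44) and 1379 (630). The interaction gave 8, 214 and 2739 at P0, P3 and P12 (1, 0 and 1542). Pkd1-RC/RC against WT gave 114, 65 and 164 (3, 8 and 48), and Pkhd1-/- 9, 12 and 10 (2, 3 and 6). The change of the digenic difference gave 297 from P0 to P3 (125) and 738 from P3 to P12 (420). That of Pkd1-RC/RC gave 34, 11 and 46 from P0 to P3, P3 to P12 and P0 to P12 (0, 2 and 1), and that of Pkhd1-/- 16 and 2 for the first and second (0 and 0). With the replicate block, digenic at P0 against WT gave 56 and at P3 285, against Pkd1-RC/RC at P3 27 and against Pkhd1-/- 25 at P0 and 393 at P3, Pkd1-RC/RC and Pkhd1-/- against WT at P0 0 and 1, and the Pkd1-RC/RC change from P3 to P12 0. With the sex term, digenic against WT gave 221 at P0 and 100 at P3, against Pkd1-RC/RC 4 and Pkhd1-/- 131 at P3, and the interaction at P0 2. With all 36 libraries in a single fit, digenic at P0 gave 1645, 63 and 1174 against WT, Pkd1-RC/RC and Pkhd1-/-, against Pkd1-RC/RC 194 at P3 and 2198 at P12 (3512), the interaction 13 at P0 and 849 at P12, Pkd1-RC/RC against WT 353 at P0 and 14 at P3, and Pkhd1-/- 18 at P0 and 3 at P12. With the 2 groups alone, digenic against WT gave 59 at P3 and 2371 at P12 (4141), and Pkd1-RC/RC and Pkhd1-/- at P0 0 and 1. The gene length correction gave 5 for Pkd1-RC/RC at P0. Without the libraries with adrenal transcripts, digenic against Pkd1-RC/RC at P3 gave 191, against Pkhd1-/- 400 at P3 and 2918 at P12 (5073), the interaction at P3 71, Pkd1-RC/RC and Pkhd1-/- against WT at P3 1 each, the digenic change from P0 to P3 251, that of Pkd1-RC/RC 1 from P0 to P3 and 3 from P0 to P12, and that of Pkhd1-/- from P3 to P12 1. In the fits without the libraries with adrenal transcripts, digenic library 1 was alone in its group at P12. Without the 2 libraries whose headers differ, the changes from P3 to P12 gave 271 for digenic and 0 for Pkd1-RC/RC.

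Ccl12 rests on 12 to 118 reads per WT library, and 3 libraries per group limit the precision of every comparison.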
